A study of Drosophila melanogaster with 2 samples.

Results

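The genes described here encode the core of epidermal growth factor receptor (EGFR) signalling in Drosophila melanogaster: the ligands spi, Krn and vn, the receptor Egfr, and the cytoplasmic steps drk, Sos, Ras85D, Raf, Dsor1 and rl. These 10 genes were selected by name from 13945 protein-coding genes on the 6 chromosome arms that hold peaks, with the peak lists already known, so their counts are a description. They form 3 ligands, 1 receptor and 6 cytoplasmic steps. Binding of the GATA family transcription factor GATAd was mapped by chromatin immunoprecipitation and sequencing in whole wandering larvae of the last instar, males and females pooled, of unknown age. All larvae came from a transgenic line, GATAd-GFP, in which GATAd carries a C-terminal GFP tag, and the tag was pulled down with an anti-GFP antibody, although the antibody field of the labels reads GATAd. There is 1 group with 2 biological replicates, numbered 2 and 3, and no other genotype or stage to compare. A whole larva mixes all tissues, so a peak does not say in which cells GATAd was found, and the labels do not say which promoter drives the transgene.

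In this pathway Spitz and Keren, the products of spi and Krn, are made as membrane-bound precursors that are cut free by Rhomboid proteases, while Vein, the product of vn, is secreted directly. Ligand binding to Egfr recruits the adaptor Drk and the exchange factor Sos, which loads Ras85D with GTP, and Ras85D then switches on the kinase cascade of Raf, Dsor1 (the fly MEK) and Rolled (rl, the fly ERK). In larvae the pathway is known for the growth and patterning of imaginal discs and for the proliferation of adult midgut progenitors.

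The peaks of Krn and Raf are shown here, and that of drk is not. Each window shown is the 201 bases centred on the summit, on the plus strand of build dm6. It was read from the RefSeq copy of the same assembly. Capitals mark WGATAR (the recognition word of GATA factors, with W for A or T and R for A or G, on either strand) and, where it adjoins that word, the E-box word CAGCTG. The first is the promoter peak of Krn at chr3L:17654303-17654503, and the other 4 are intronic peaks of Raf at chrX:2300574-2300774, chrX:2321998-2322198, chrX:2317355-2317555 and chrX:2299141-2299341, from the strongest to the weakest.
Krn promoter: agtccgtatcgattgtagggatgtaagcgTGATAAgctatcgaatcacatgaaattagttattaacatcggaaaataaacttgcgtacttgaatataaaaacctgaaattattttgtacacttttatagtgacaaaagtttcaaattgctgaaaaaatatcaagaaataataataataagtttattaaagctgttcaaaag
Raf intron, 5.21 kb: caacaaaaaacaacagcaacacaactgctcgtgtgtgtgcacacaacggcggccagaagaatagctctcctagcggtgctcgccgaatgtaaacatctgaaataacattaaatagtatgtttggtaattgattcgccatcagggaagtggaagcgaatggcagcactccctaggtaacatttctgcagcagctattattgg
Raf intron, 26.6 kb: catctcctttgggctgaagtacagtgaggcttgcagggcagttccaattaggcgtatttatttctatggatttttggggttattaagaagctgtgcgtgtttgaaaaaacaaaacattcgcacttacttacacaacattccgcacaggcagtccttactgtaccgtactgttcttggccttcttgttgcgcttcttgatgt
Raf intron, 22.0 kb: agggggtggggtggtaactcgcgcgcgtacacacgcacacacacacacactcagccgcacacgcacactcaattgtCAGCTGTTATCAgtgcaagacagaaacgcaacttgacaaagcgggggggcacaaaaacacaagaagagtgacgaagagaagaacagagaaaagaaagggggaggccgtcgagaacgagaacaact
Raf intron, 3.78 kb: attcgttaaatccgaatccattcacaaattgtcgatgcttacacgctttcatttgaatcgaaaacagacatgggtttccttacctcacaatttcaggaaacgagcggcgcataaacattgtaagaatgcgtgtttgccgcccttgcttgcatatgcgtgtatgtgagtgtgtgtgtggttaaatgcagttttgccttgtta

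The Krn window held 1 WGATAR word, TGATAA, from 71 to 66 bp before the summit on the plus strand. The Raf window at 22.0 kb held 1, read as TTATCA on the plus strand from 18 to 13 bp before the summit, directly after the CAGCTG word. The other 3 Raf windows held no WGATAR and no GATA core on either strand. The peak of drk, whose bases are not shown, held neither. The word was thus at 2 of the 6 member peaks, and at 41.2% of all 1205 peaks and 42.4% of the 250 intronic peaks over 1 kb from any transcription start site (TSS). The core GATA was at the same 2 of 6 peaks and at 79.7% of all 1205. CAGCTG, at 1 of the 6, was at 13.1% of all. The GC share of the Krn window was 27.4%, and the median over all peaks was 36.3%. The Raf windows had 45.3%, 43.3%, 53.2% and 41.8%, all above that median and above the median of 36.8% for intronic peaks.

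Peaks were read from the authors' 4 lists on dm6. The list kept by the irreproducible discovery rate (IDR), which asks whether replicates rank a peak alike, holds 1205 peaks, and the pooled, replicate 2 and replicate 3 lists hold 30000 candidates each, most of them weak by design. The IDR peaks are the 1205 strongest of the pooled list, so a place among them does not show that both replicates ranked that peak alike. Column 7 of each list, the authors' signal per peak, has no stated scale, so each value is given with its rank in its own list, where rank 1 is the strongest. Rank 1205 fell at a signal of 43.9 in the pooled list, 25.7 in replicate 2 and 24.6 in replicate 3. Each replicate gives 1 value per peak, so no standard deviation is given, and with read depth unknown no interval on a signal can be had. Nearly all summits (95.8% in the IDR list) lie at the exact centre of their peak, so distances to a summit are no finer than the calling of the peak.

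An IDR summit lay in the body or within 1 kb of 3 of the 10 genes, Krn, drk and Raf. Over all protein-coding genes this share was 11.6%. By role it was 1 of the 3 ligands, 0 of 1 receptor and 2 of the 6 cytoplasmic steps. With so few genes these counts set no role apart. Only Krn had an IDR summit within 1 kb of its own TSS, 1 of 10, where the share of all genes was 8.78%. Among the 1205 strongest peaks of each replicate taken separately, Krn and Raf had a summit in both (2 of 10, against 7.47% of all genes). In replicate 2 alone the genes were Krn, drk and Raf (3 of 10, against 11.1%). In replicate 3 alone they were Krn, Raf, Egfr and Ras85D (4 of 10, against 12.1%). In length classes chosen after the data were seen, longer genes held peaks more often: 9.18% of genes under 5 kb had an IDR summit, 17.6% of those from 5 to 30 kb and 25.2% of those of 30 kb or more. The members with a summit were 1 of 3, 1 of 3 and 1 of 4 in these classes, the last being Raf among vn, Egfr, Raf and rl.

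**Figure D1:**
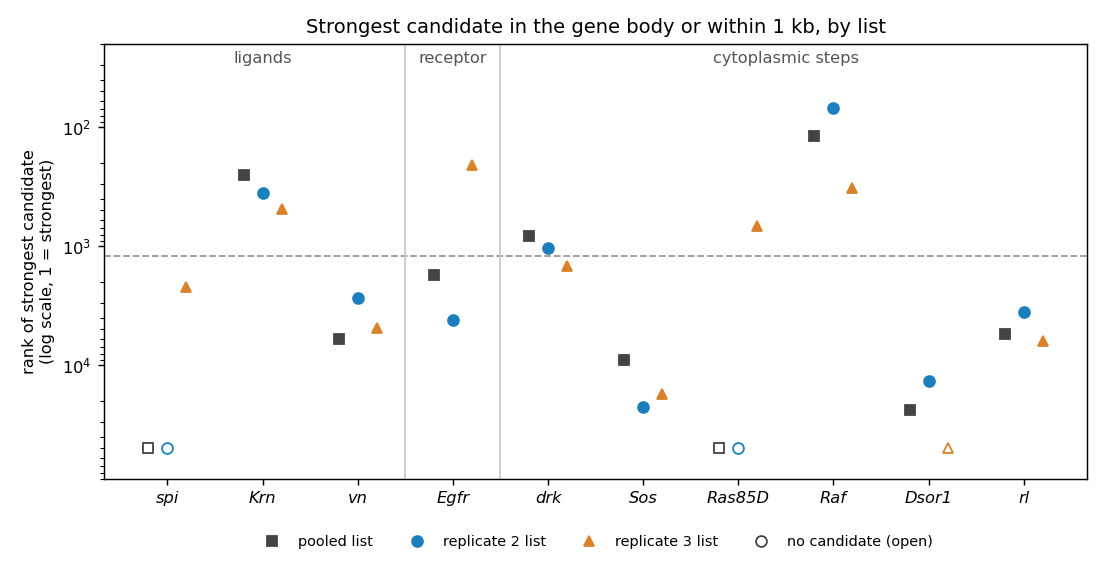
Rank of the strongest candidate in the gene body or within 1 kb of each of the 10 genes (log scale, strongest at the top) in the pooled list (squares), the replicate 2 list (circles) and the replicate 3 list (triangles). Open symbols at the foot mark lists with no candidate, the dashed line is rank 1205, and Krn and Raf are above it in all 3 lists while Egfr and Ras85D are above it in replicate 3 only.

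Among the ligands, Krn had an IDR peak, at its promoter, and spi and vn had none. The Krn peak spanned 17654211 to 17654594 on 3L. Its summit was intergenic and lay 123 bp upstream of the Krn TSS. Its signal was 93.7 in the pooled list (rank 253), 44.4 in replicate 2 (rank 360) and 37.4 in replicate 3 (rank 489), and the replicate summits were 4 bp and 9 bp from the pooled one. Both replicates thus placed it well within their 1205 strongest candidates. The peak cannot be assigned to Krn alone. Ndfip, a gene for a Nedd4 family interacting protein, is annotated with the same TSS and strand, and the TSS of CG7484 on the opposite strand was 214 bp from the summit. A second Krn candidate, in the intron 992 bp from the TSS, had pooled signal 35.2 at rank 1803, below the weakest IDR peak of 43.9, with 20.9 in replicate 2 (rank 2097) and 14.8 in replicate 3 (rank 3602).

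The vn gene (3L, 5813338 to 5845664, 32.3 kb) held 14 pooled candidates, all weak. The strongest had a signal of 22.4 at rank 6090 and lay 852 bp upstream of the vn TSS, with 12.5 in replicate 2 (rank 14271) and 8.20 in replicate 3 (rank 17653). Each replicate had its own strongest vn candidate elsewhere in the gene, with 19.4 in replicate 2 (rank 2709) and 13.1 in replicate 3 (rank 4924). The nearest IDR summit was 42.3 kb from the gene. At spi (2L, 19567900 to 19577315) the pooled list and replicate 2 had no candidate. Replicate 3 had 3, with signals of 18.3, 11.6 and 9.78, and the strongest, at rank 2202, was in an intron 1607 bp from the nearest spi TSS. Thus the ligand genes span a peak near the top of every list, weak candidates only, and candidates in a single replicate.

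**Figure D2:**
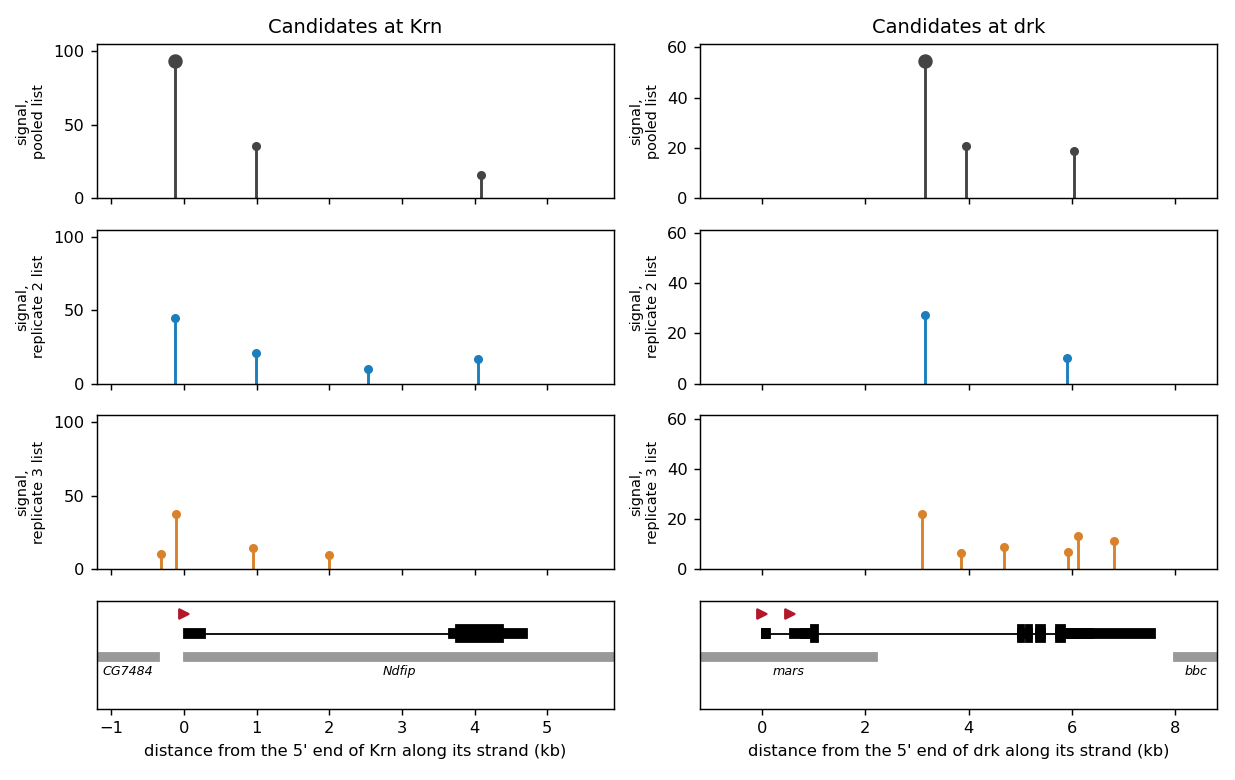
Signal (column 7 of each list) of every candidate at Krn (left) and drk (right) against distance in kb from the 5' end of the gene along its strand, for the pooled list and replicates 2 and 3. The lower track shows exons (thick for coding), neighbouring genes in grey and TSSs as red arrowheads, and large dots in the pooled track are IDR peaks, 0.123 kb upstream of Krn and 3.15 kb into drk.

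The receptor gene had no IDR peak, and the replicates differed there. Egfr (2R, 21522420 to 21559977, 37.6 kb) held 8 pooled candidates, all in introns. The strongest lay in the intron after the downstream TSS, 4874 bp from it, on 2R from 21551325 to 21551708. It had a pooled signal of 35.8 (rank 1748), 15.6 in replicate 2 (rank 6491) and 25.5 in replicate 3 (rank 1125). The replicate 3 summit was 44 bp from the pooled one and within the strongest 1205 of its list. The replicate 2 summit was 178 bp from the pooled one and well outside the strongest 1205 of replicate 2. A second candidate of replicate 3 lay 12 bp from that replicate 2 summit, with 15.8 at rank 3069. The other 7 pooled candidates, with signals from 14.7 to 21.9, lay in the long intron of 23.4 kb that follows the upstream TSS.

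Replicate 3 also had a much stronger candidate at Egfr, of signal 52.1 at rank 207, on 2R from 21535458 to 21535861. It lay in the same 23.4 kb intron, 1135 bp from the TSS of the nested gene CG30286, and held 1 WGATAR word. No candidate of the other lists overlapped it. The nearest pooled summit was 1869 bp away with a signal of 17.6, and the nearest of replicate 2 was 2497 bp away with 15.8. Such unmatched peaks were more common in replicate 3: of its 1205 strongest, 137 (11.4%) overlapped no candidate of replicate 2 or of the pool, and of the 1205 strongest of replicate 2 it was 8 (0.664%). The Egfr candidate is the 12th strongest of those 137. The cause of this difference between the replicates was not tested.

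**Figure D3:**
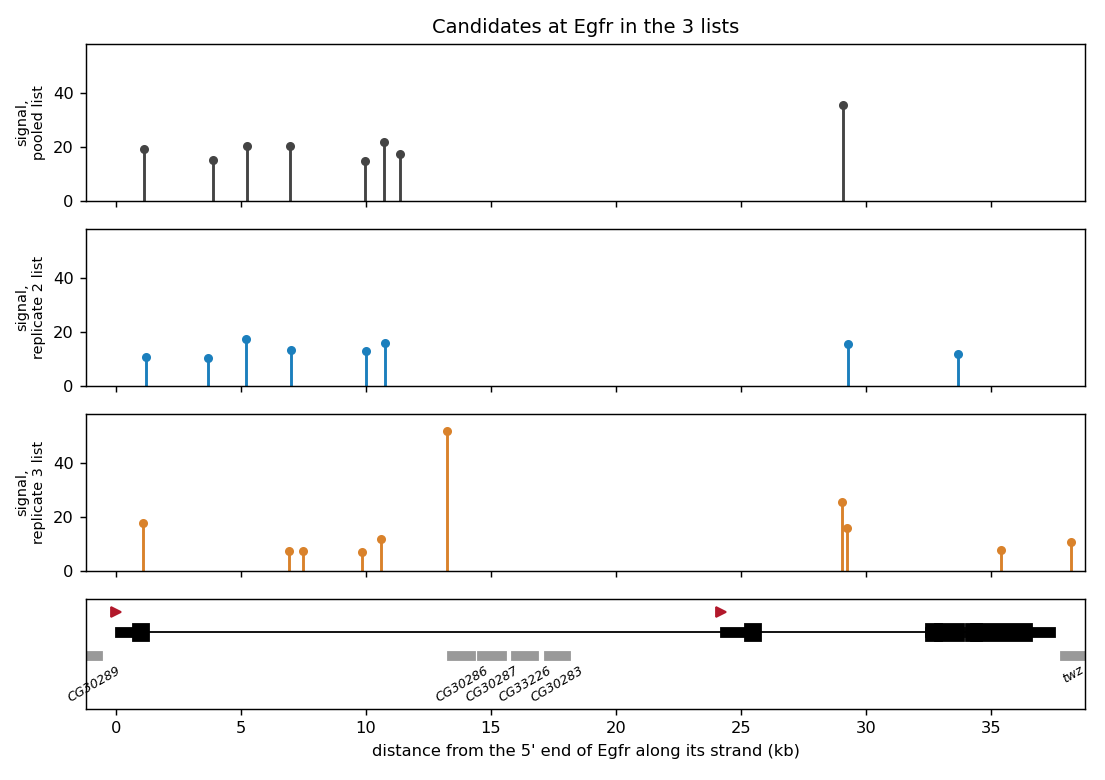
Signal (column 7 of each list) of every candidate at Egfr against distance in kb from the 5' end of the gene, for the pooled list and replicates 2 and 3, with exons, nested genes (grey) and TSSs (red arrowheads) below. The replicate 3 candidate of signal 52.1 at 13.2 kb has no counterpart in the other lists. The pooled candidate at 29.1 kb is overlapped by candidates of both replicates.

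At the adaptor and exchange steps only drk had an IDR peak. The drk peak lay on 2R from 13499498 to 13499881, in an intron of drk of 3923 bp and 2603 bp from the nearest drk TSS. Its signal was 54.7 in the pooled list (rank 825), 27.4 in replicate 2 (rank 1039) and 22.2 in replicate 3 (rank 1463). Replicate 2 thus placed it just inside its 1205 strongest and replicate 3 just outside. The nearest TSS, 931 bp away, belongs to mars, a gene for a mitotic microtubule-associated protein that overlaps drk on the opposite strand. By the rule for promoters this is a peak of mars and not of drk. Sos (2L, 13813816 to 13819824) had 1 pooled candidate, at rank 9030, beyond its 3' end and 806 bp from the TSS of the neighbouring gene b. Replicate 2 had no overlapping candidate there, and replicate 3 had 8.26 at rank 17353.

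Ras85D (3R, 9510561 to 9513067), the GTPase at the centre of the pathway, had no candidate in the pooled list or replicate 2. In replicate 3 it had 1, of signal 32.4 at rank 676, on 3R from 9513086 to 9513489. That summit lay between the divergent TSSs of Ras85D, 221 bp away, and Rlb1, 39 bp away. It is also among the 137 unmatched strong peaks of replicate 3, and the nearest pooled summit was 14136 bp from it. The pattern of spi and Ras85D, candidates in replicate 3 with none in the pool or replicate 2, held for 2 of the 10 genes and for 12.8% of all genes. The converse, candidates of replicate 2 alone, held for 0 of 10 and for 4.43% of all genes.

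Raf, the first kinase of the cascade, held 4 of the 6 IDR peaks. They lay in a single intron of 43637 bp between the exons at the upstream TSS and those at the downstream TSS of the gene (X, 2295466 to 2343870, 48.4 kb). Of all 13945 genes, 6 (0.0430%) had 4 or more IDR summits in the body or within 1 kb. Among the 663 genes of 30 kb or more, 4 did (0.603%). The cutoff of 4 is Raf's own count, so Raf fell in this class by construction. Raf had 0.794 IDR summits per 10 kb of gene body and flanks. All genes together had 0.149, and the other 9 members together 0.114, most of them without an IDR summit. The density is not particular to Raf. Krn (4.72 kb) and drk (7.62 kb), with 1 IDR summit each, were denser for their length. So was edl (6.01 kb), a pathway gene outside the core, with 2.

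The strongest Raf peak, on X from 2300482 to 2300865, lay 5.21 kb into the gene. Its signal was 134 in the pooled list (rank 119), 88.6 in replicate 2 (rank 69) and 44.4 in replicate 3 (rank 325). The next, on X from 2321906 to 2322289 and 26.6 kb into the gene, had 103 in the pooled list (rank 199), 70.5 in replicate 2 (rank 124) and 38.4 in replicate 3 (rank 458). Both sites were well within the 1205 strongest of both replicates, and the replicate summits lay within 30 bp of the pooled ones.

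The peak at 22.0 kb, on X from 2317263 to 2317646, was present in replicate 2 and absent from the candidates of replicate 3. It had 78.0 in the pooled list (rank 403) and 61.0 in replicate 2 (rank 179), and the nearest replicate 3 candidate was 1560 bp away with a signal of 6.97 at rank 25467. The weakest of the 4, at 3.78 kb on X from 2299049 to 2299432, had 48.8 in the pooled list (rank 1004), 27.1 in replicate 2 (rank 1069) and 19.5 in replicate 3 (rank 1909). In the whole IDR list 8 of 1205 peaks (0.664%) overlapped no candidate of replicate 3, and 1168 (96.9%) overlapped one in both replicates. All 4 Raf peaks were among the 1205 strongest of replicate 2, and 2 of them among those of replicate 3. Of all IDR peaks, 75.6% were among the strongest of replicate 2, 70.1% of replicate 3 and 52.0% of both, and of the 6 member peaks it was 6, 3 and 3, so the share in both was near that of the whole list. Among the 250 intronic IDR peaks over 1 kb from a TSS, the Raf peaks ranked 25, 36, 68 and 196 by signal.

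A further Raf candidate stood just outside the IDR list. It lay 34.0 kb into the gene with a pooled signal of 37.3 (rank 1615) and 26.2 in replicate 2 (rank 1149), and replicate 3 had no overlapping candidate. The candidate at the upstream Raf TSS, 142 bp from it in the 5' UTR, was weaker, with 28.2 in the pooled list (rank 2973), 17.1 in replicate 2 (rank 4447) and 10.4 in replicate 3 (rank 9349). The same intron holds the genes CG14050, CG2854 and Ilp6, the last encoding an insulin-like peptide, and all 4 IDR summits lay over 1 kb from their TSSs. The closest was that at 26.6 kb, 3686 bp from the TSS of CG14050.

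**Figure D4:**
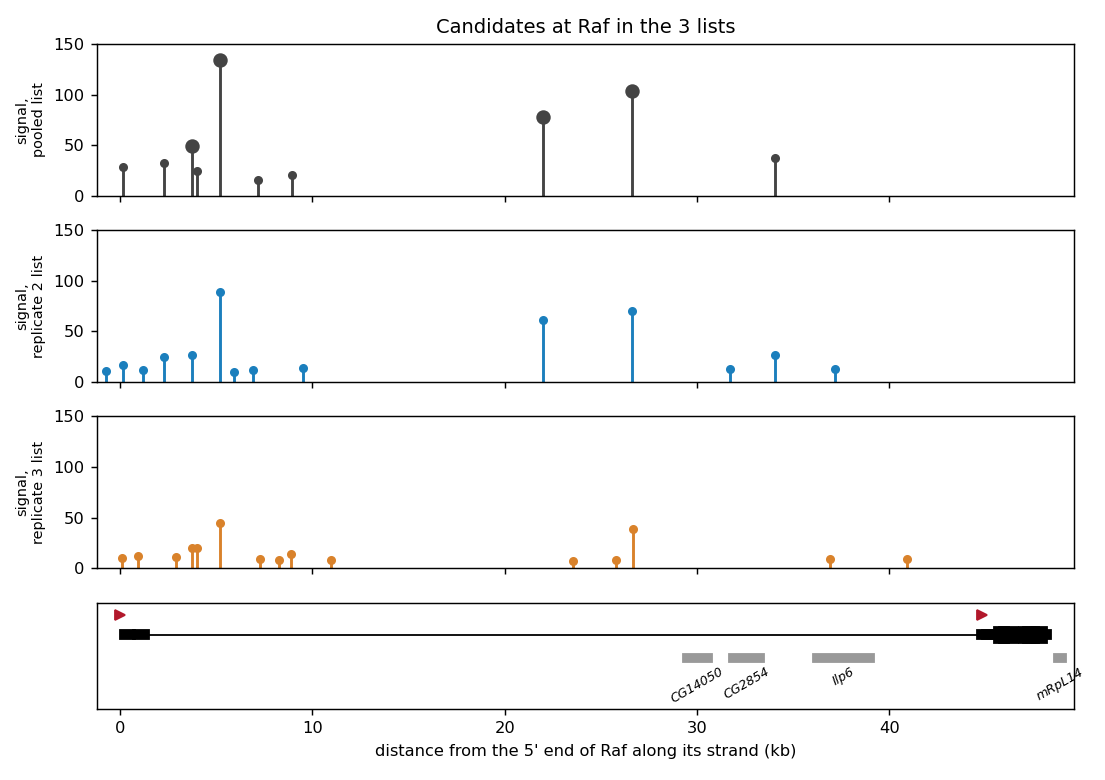
Signal (column 7 of each list) of every candidate at Raf against distance in kb from the 5' end of the gene, for the pooled list and replicates 2 and 3, with exons, nested or adjacent genes (grey) and TSSs (red arrowheads) below. The 4 IDR peaks (large dots) fall at 3.78, 5.21, 22.0 and 26.6 kb in the long intron, and replicate 3 has no candidate at 22.0 kb.

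The last kinases of the cascade had weak candidates only. Dsor1 (X, 9247342 to 9250037) had 1 pooled candidate of signal 14.7 at rank 24061, in the 5' UTR of the neighbouring CG17754, with 12.6 in replicate 2 (rank 13718) and no candidate in replicate 3. An IDR summit of signal 46.7 lay 3646 bp from the Dsor1 gene, 121 bp from the TSS of Larp7. The rl gene (2R, 1071462 to 1125927, 54.5 kb), the longest of the 10, held 9 pooled candidates, with the strongest at 23.2 (rank 5448), 9.71 in the overlapping candidate of replicate 2 (rank 28917) and 11.6 in that of replicate 3 (rank 6948). Its nearest IDR summit was 396.6 kb away.

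Counting all candidates, the 10 genes held 49 in the pooled list, 47 in replicate 2 and 62 in replicate 3. Of the 49 pooled candidates 38 were in introns, 8 lay within 1 kb of any TSS and 5 within 1 kb of the member's own TSS. These positions were not counted over all 30000 pooled candidates, so they cannot be called a trait of the members. An overlapping candidate was found in both replicates for 19, in replicate 2 only for 14, in replicate 3 only for 12 and in neither for 4. Over all 30000 pooled candidates these shares were 30.2%, 36.9%, 22.2% and 10.6%, and at the members they were 38.8%, 28.6%, 24.5% and 8.16%, so incomplete overlap was general to the lists. Pooled candidates numbered 2.17 per 10 kb of gene and flanks at the members and 2.43 over all genes. A pooled candidate lay at 8 of the 10 genes, and at 63.0% of all genes. The strongest pooled signal had a median of 29.5 over these 8 genes and of 22.3 over the 8783 genes with a candidate. Neither this comparison nor that of genes with a candidate was matched for gene length. Of the 10 genes 4 are 30 kb or more, as are 663 of all 13945 genes. WGATAR was at 23 of the 49 pooled candidates (46.9%) and at 31.7% of all 30000, a description of candidates that share genes and are not independent.

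Of the 6 IDR peaks of the members, 2 lay within 1 kb of a protein-coding TSS (Krn, and mars at drk) and 4 in an intron farther away. In the whole IDR list 69.8% lay within 1 kb of a TSS and 20.7% in introns over 1 kb from one. As 4 of the 6 share the Raf intron, they are not independent examples of their position.

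Beyond the core, 29 other pathway genes were read in the same way, and 6 had an IDR summit in the body or within 1 kb: S, Shc, ave, sty, edl and cic. All genes had one in 11.6%, as above. By role they were 1 of 8 genes for other ligands or ligand processing, 0 of 2 extracellular or transmembrane inhibitors, 2 of 8 adaptors and scaffolds, 1 of 7 cytoplasmic inhibitors and 2 of 4 nuclear effectors. Shc, an adaptor that binds activated receptors, had the strongest peak of the pathway, 116 bp upstream of its TSS and 136 bp from that of Atat. Its signal was 198 in the pooled list (rank 40), 121 in replicate 2 (rank 35) and 76.7 in replicate 3 (rank 80). S encodes Star, which escorts the Spitz precursor to the Rhomboid proteases, and had an intronic peak 5408 bp from its TSS with 128 (rank 123), 67.6 (rank 142) and 58.6 (rank 152) in the same lists.

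The Shc summit window, chr3L:9426794-9426994 on the plus strand of dm6, is shown because it is the strongest peak of the pathway and holds both WGATAR and the DNA replication-related element TATCGATA, a promoter word of housekeeping genes, both in capitals.
Shc promoter: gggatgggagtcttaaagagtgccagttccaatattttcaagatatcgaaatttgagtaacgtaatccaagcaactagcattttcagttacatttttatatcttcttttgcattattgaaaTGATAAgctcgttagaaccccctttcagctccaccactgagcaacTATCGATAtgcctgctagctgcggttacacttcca
TATCGATA was at none of the 6 member peaks, at this 1 of the 7 peaks of the other pathway genes and at 5.81% of all 1205 IDR peaks. It was at 0 of the 250 intronic IDR peaks over 1 kb from a TSS, the class of all 4 Raf peaks. WGATAR was also at only this 1 of the 7 peaks of the other pathway genes, and at 41.2% of all 1205.

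The nuclear effector edl, whose product binds the ETS factors Pointed and Yan, had 2 intronic peaks. The stronger had 109 in the pooled list (rank 178), 60.4 in replicate 2 (rank 180) and 47.1 in replicate 3 (rank 272), and the weaker 51.9 (rank 908), 26.8 (rank 1104) and 13.2 (rank 4830). The peak of ave, which encodes a partner of the scaffolds Cnk and Ksr, lay 157 bp from its TSS and 93 bp from that of the proteasome gene Rpn6. It had 81.6 in the pooled list (rank 365), 35.5 in replicate 2 (rank 616) and 42.1 in replicate 3 (rank 365). The cic peak, at the gene of the repressor Capicua that ERK inactivates, lay in a 5' UTR 557 bp from a TSS with 56.1 (rank 791), 27.7 (rank 1015) and 37.2 (rank 502). Sprouty (sty), an inhibitor of Ras signalling, had an intronic peak 924 bp from a TSS with 52.6 in the pooled list (rank 884) and 38.0 in replicate 2 (rank 517), but only 8.47 in replicate 3 (rank 16375). The strongest candidate at an outer inhibitor was at aos, the secreted antagonist of Spitz, 287 bp from its TSS with a pooled signal of 30.8 at rank 2379, below the IDR list.

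**Figure D5:**
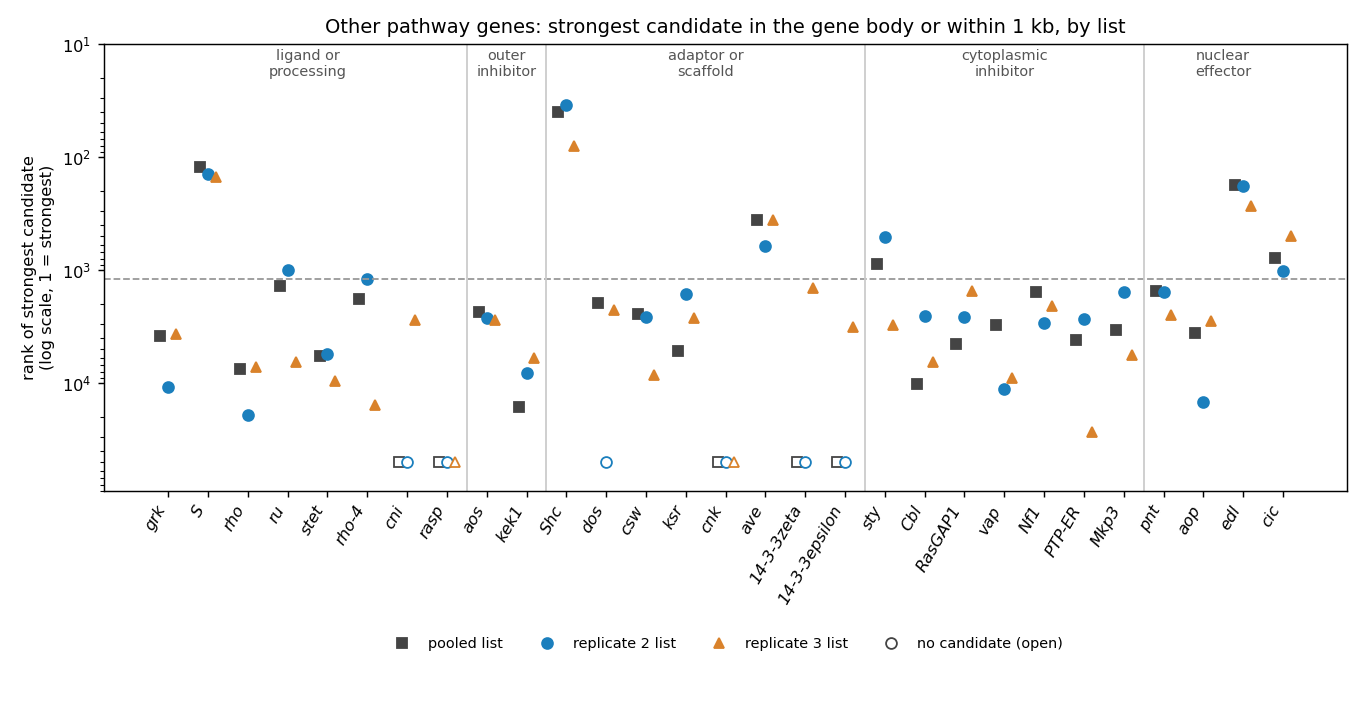
Rank of the strongest candidate in the gene body or within 1 kb of each of 29 other pathway genes (log scale, strongest at the top), grouped by role, in the pooled list (squares), replicate 2 (circles) and replicate 3 (triangles). Open symbols mark lists with no candidate and the dashed line is rank 1205. Shc, S, ave, edl and cic are above it in all 3 lists. The gene sty is above it in the pooled list and replicate 2, and ru (rank 1013) and rho-4 (rank 1202) in replicate 2 only.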

How the data were processed

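The samples are 2 libraries of GATAd-GFP larvae, biological replicates 2 and 3 per the labels. Per the deposited file records, the authors called 30000 candidates on dm6 for each replicate and for the pool, and derived the IDR list from these. Their signal (column 7) and score (column 9) were used as deposited. The aligner, the peak caller and the scale of either column were not given in the sources read. The score fell as the signal rose in the pooled and replicate 2 lists (Spearman's rho across peaks -0.478 and -0.694) and rose with it in the IDR and replicate 3 lists (0.994 and 0.9999), so the score was not comparable between replicates and peaks were ordered by signal.

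Summits (column 2 plus column 10, written 1-based) were placed on Ensembl release 115 genes of BDGP6, the assembly of dm6, and 0 peaks ran past an arm's end. A candidate matched another list where the peaks overlapped by at least 1 bp, taking the nearest summit. Each word was looked for on either strand, up to 100 bp from the summit. Python 3.11.15 and pandas 2.3.3 were used, and the counting was tested on simulated summits and words. The lists on dm3 were not used here.

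The members and lists were chosen with earlier results of these data known, so no test was made. The text names all 10 members, the other pathway genes with an IDR summit or the strongest pooled summit of their role, and the genes whose TSS is nearest to a member's IDR peak or within 1 kb of it. The other neighbours and nested genes (Atat, b, CG14050, CG17754, CG2854, CG30286, Ilp6, Larp7, Rlb1 and Rpn6) were named after their positions were seen. The genes ru and rho-4 were named for their ranks in replicate 2. Distances, thresholds, windows and each replicate alone were tried as alternatives.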

Additional observations from a re-analysis of the deposited data

How the results depend on the processing

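Of 37 alternatives, 31 left the count within 1.5 times. With counts this small the bound lets many changes of 1 gene pass, so it says little about stability. The members with an IDR summit, for example, fell from 3 to 2 inside gene bodies and with the 602 strongest IDR peaks, which is within it. Krn left the count of ligand genes when summits had to fall inside the gene body (0 of 3), and the count of genes with a strong peak in both replicates then fell from 2 to 1, since its summit lies upstream. With the 602 strongest IDR peaks drk was lost, leaving 1 of the receptor and cytoplasmic genes, Raf. Each replicate was also taken alone, with its 1205 strongest candidates in place of the IDR list. The members with a peak then numbered 3 to 4, the ligands 1 to 1 and the receptor and cytoplasmic genes 2 to 3. The genes themselves changed: in replicate 3 alone drk dropped out and Egfr and Ras85D entered. Only Raf of the receptor and cytoplasmic genes was kept in both. The other pathway genes numbered 5 to 8, and the members with a peak at a TSS 1 to 2, as Ras85D entered from replicate 3. WGATAR lay at 1 member peak in place of 2 with windows of 50 bp. The strongest pooled candidate had a counterpart in both replicates at 6 of the 8 members with a pooled candidate, and at 3 where summits had to lie within 100 bp. The same share was not counted over all genes. No paired analysis was possible because there is 1 group. Depth is unknown, so an absent candidate is not evidence of absent binding.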
